A study of Mus musculus with 3 samples.

Results

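The enzymes of the citrate cycle and of fatty acid oxidation, with the proteins that feed and regulate them, were examined as a set of 44 named genes in normal mouse muscle. They were chosen by name, but with earlier results of these data known. A gene's level was that of its highest probe set among those that platform annotation gave to that gene alone. Of the 44 genes, 42 had such a probe set, out of 12394 genes in all, and 74 probe sets measured them. Acsl1, which activates long-chain fatty acids, had no probe set of its own, and Cpt1b, the form of carnitine palmitoyltransferase 1 typical of muscle, was named only on a probe set shared with other genes, so neither has a value here.

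The samples were 3 normal muscles, called muscle 1, muscle 2 and muscle 3, from littermate controls of 3 to 6 weeks of age, with 1 array each. They served the study as the normal reference for tumours that arose from Pax7-expressing satellite cells, the stem cells of muscle. The labels do not give the strain, the alleles the littermates carried, whether they received the 4-hydroxytamoxifen used for the tumour mice, nor whether each muscle is from an animal of its own. Every SD and p-value below therefore covers the scatter among these samples alone, which could be technical. Tumour arrays were not analysed here, so no condition was compared with another.

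In skeletal muscle, pyruvate from glycolysis and fatty acids from blood or stored fat both end as acetyl-CoA in the mitochondrion. The pyruvate dehydrogenase complex makes it from pyruvate, and kinases that phosphorylate the complex switch it off when fat is being burned. Long-chain fatty acids cross the inner membrane as carnitine esters and are shortened by beta-oxidation, each round of which passes electrons to the respiratory chain and releases an acetyl-CoA for the citrate cycle.

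Values are log2 RMA levels, on which a difference of 1 is 2-fold. The median of all probe sets was 6.12 in each muscle. As a background level the value exceeded by only 5% of 113 probe sets was taken, all from 89 genes restricted to other organs, which came to 6.03, 6.04 and 6.10 for muscles 1, 2 and 3. Probe sets bind with different strength, so levels of different genes are not ranked here. The tissue label was checked against markers. All 10 fast fibre genes and 9 of 10 slow fibre genes exceeded background in every muscle, the exception being Myl6b. Of 10 genes listed for heart, 1 did, sarcolipin (Sln). Tnnt2 exceeded it in muscle 1 alone, at 6.24, and the other 8 in no muscle.

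Nearly the whole set was expressed above background. In all 3 muscles 41 of the 42 measured members were above it (97.6%), against 56.8% of all genes, and the remaining one, Cpt1a, was above it in 2 muscles. The muscles also differed little. The SD over the 3 muscles (n = 3) had a median of 0.0471 in the 41 members, against 0.0768 in all 7043 genes above background throughout. Over genes above background in both muscles left, the medians for members and all genes were 0.042 and 0.0651 without muscle 1. They were 0.0285 and 0.0631 without muscle 2, where 42 members counted, and 0.0415 and 0.05395 without muscle 3. With all muscles, the range between the highest and lowest muscle had a median of 0.0834 in the 41, against 0.146 in all these genes. It was less than 0.1 in 24 of the 41. SD falls with level on these arrays and the members are bright, with a median level of 11.01 against 8.13. Set against the SD that limma fitted for genes of their own level, 23 of 41 members (56.1%) were below it, as were 60% of all genes.

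**Figure D1:**
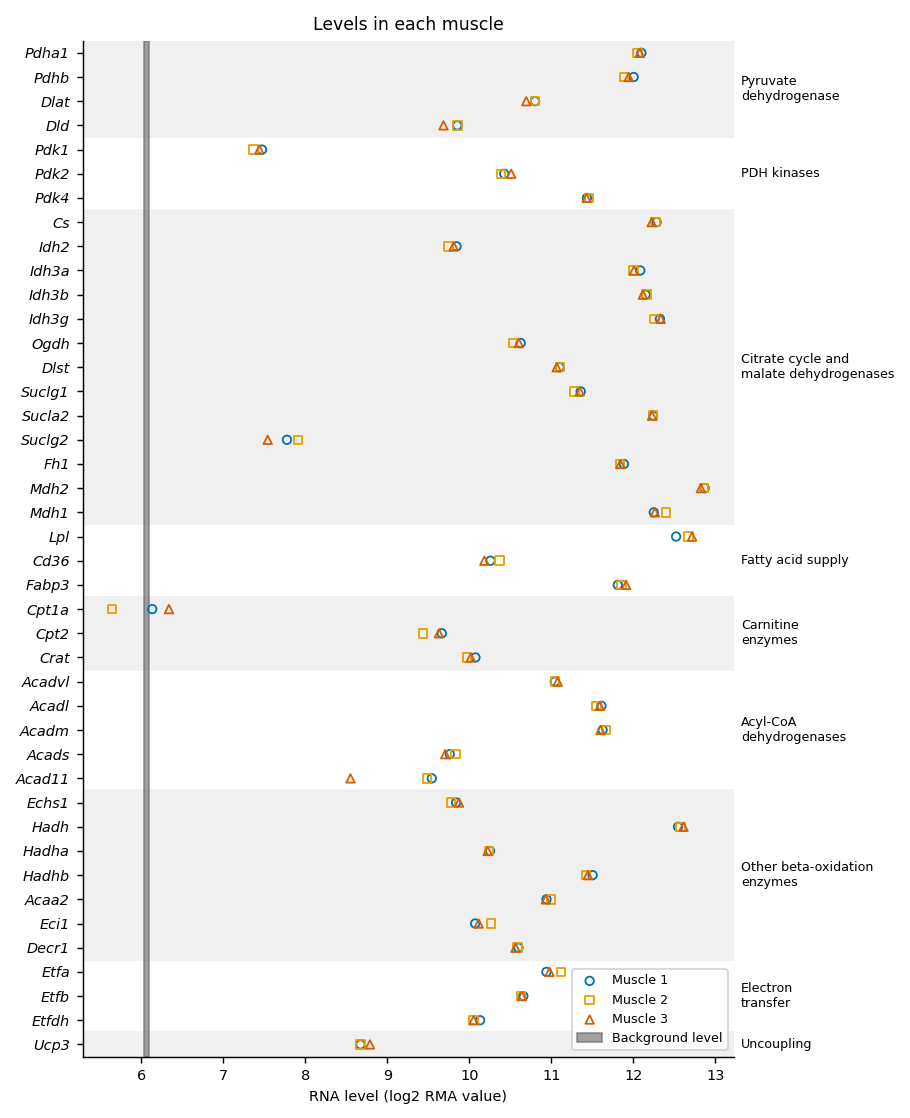
RNA level of each of the 42 measured members (horizontal axis, log2 RMA value) in muscle 1 (circles), muscle 2 (squares) and muscle 3 (triangles), 1 array each, with genes grouped by role and the band of background levels of the 3 muscles in grey. In most rows the 3 symbols overlap; Acad11 in muscle 3, at 8.55, and Cpt1a near the background band stand away from that pattern.

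The pyruvate dehydrogenase complex was above background in every muscle in all 4 of its measured subunits. Pdha1, the catalytic alpha subunit, was at 12.10, 12.05 and 12.08 in muscles 1, 2 and 3, the order used for all values that follow. Its partner Pdhb was at 12.00, 11.88 and 11.94. The 3 values of either gene lay within 0.121 of each other. Dlat, the acetyltransferase core, was at 10.80, 10.80 and 10.69. Dld, the lipoamide dehydrogenase that the complex shares with the 2-oxoglutarate dehydrogenase complex, was at 9.85, 9.86 and 9.68. Both were lowest in muscle 3, with ranges of 0.107 and 0.171. For Dlat the other 2 probe sets were at 10.76, 10.66 and 10.65 and at 10.49, 10.48 and 10.17, also lowest in muscle 3.

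The 3 member kinases that inactivate the complex were all above background. Pdk4, the isoform known to be induced by fasting and by fatty acids, was at 11.43, 11.46 and 11.43. Its range of 0.0316 was the narrowest of the 3 kinases. Pdk2, the broadly expressed isoform, was at 10.43, 10.38 and 10.51, and Pdk1 was at 7.47, 7.37 and 7.44. None of these 3 spanned more than 0.126, but a second probe set of Pdk1, at 7.12, 7.35 and 7.13, was highest in muscle 2 where the first was lowest. Pdk3, the remaining isoform, not a member and named after its values were seen, was at 6.39, 6.37 and 6.13, close to background, with a range of 0.263. None of the 4 passed the variance test described below.

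All 13 citrate cycle genes, counted with the cytosolic malate dehydrogenase, were above background throughout. Citrate synthase (Cs), which condenses acetyl-CoA with oxaloacetate, was at 12.28, 12.27 and 12.22. The NADP-linked mitochondrial isocitrate dehydrogenase Idh2 was at 9.84, 9.75 and 9.81. Both had ranges below 0.1. The NAD-linked isocitrate dehydrogenase is built from 3 kinds of subunit. Idh3a, the catalytic one, was at 12.08, 12.00 and 12.01, and the regulatory subunits Idh3b and Idh3g were at 12.15, 12.16 and 12.12 and at 12.32, 12.26 and 12.33. Muscle 2 was lowest for Idh3a and Idh3g, and muscle 3 for Idh3b, all by less than 0.1. The other probe sets of Idh3a and Idh3g, at 10.28, 10.26 and 10.23, at 9.26, 9.19 and 9.01, and at 11.54, 11.50 and 11.49, were lowest in muscle 3 instead.

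The 2-oxoglutarate dehydrogenase complex follows. Its first component Ogdh was at 10.63, 10.53 and 10.60 and its succinyltransferase Dlst was at 11.10, 11.10 and 11.07. Succinyl-CoA synthetase pairs the common subunit Suclg1, at 11.36, 11.28 and 11.35, with a nucleotide-specific partner. The ADP-forming partner Sucla2 was at 12.24, 12.24 and 12.23, with an SD of 0.00682 that was the lowest of the 41 members. The GDP-forming partner Suclg2 was at 7.78, 7.91 and 7.54, highest in muscle 2 and lowest in muscle 3. Its range of 0.367 was the widest in the cycle, a 1.29-fold span, while the SD of 0.186 stood against 0.104 expected at its level. Suclg2 has a single probe set, so no second reading bears on it.

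Fumarate hydratase (Fh1) was at 11.88, 11.83 and 11.84. Mitochondrial malate dehydrogenase (Mdh2), which closes the cycle, was at 12.87, 12.86 and 12.82. Both were nearly level across the muscles. The cytosolic enzyme Mdh1, part of the malate-aspartate shuttle that carries reducing equivalents into the mitochondrion, was at 12.25, 12.40 and 12.26. It was highest in muscle 2, by 0.14 over the mean of the others. Its 2 other probe sets that were above background did not repeat this, at 11.99, 11.95 and 11.90 and at 10.80, 10.86 and 11.00.

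Of the proteins that supply fatty acids, 3 were measured, each above background. Lipoprotein lipase (Lpl), which frees fatty acids from circulating triglyceride, was at 12.52, 12.67 and 12.71. It was lowest in muscle 1, and its second probe set, at 9.42, 9.52 and 9.28, was lowest in muscle 3 instead. Cd36, a fatty acid carrier of the cell surface, was at 10.26, 10.37 and 10.18, and Fabp3, which binds fatty acids in the cytosol of muscle and heart, was at 11.81, 11.86 and 11.91. Cd36 was highest in muscle 2, and Fabp3 in muscle 3, with ranges of 0.184 and 0.102. The other 2 probe sets of Cd36 did not repeat its order. The second, at 9.94, 9.88 and 9.95, was lowest in muscle 2, and the third was highest in muscle 1, at 9.01, and lowest in muscle 3, at 8.92.

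Lpl and Cd36 are also made by adipocytes, and Cd36 by the endothelium, so markers of those cells were read beside them. In whole tissue, fewer cells of a type and less RNA per cell cannot be told apart. Of 10 measured adipocyte genes 8 exceeded background throughout, and the log2 of their summed linear level over all 10 was 14.03, 14.05 and 14.00. The probe set that adds most to this sum, that of Car3, which muscle fibres also make, was at 13.01, 13.02 and 12.96, and without it the sum over 9 was 13.05, 13.08 and 13.04. Fabp4, a fatty acid binding protein on the adipocyte list, adds most to the sum without Car3, at 12.21, 12.24 and 12.22. Whether its RNA came from adipocytes alone was not tested. Single markers, named after their values were seen, had different orders. Adipoq was at 10.59, 10.55 and 10.40, highest in muscle 1, and Cidec at 7.13, 7.34 and 7.44, highest in muscle 3. The 2 not above background throughout varied most: Lep, the hormone leptin, was at 5.94, 6.60 and 5.36, highest in muscle 2, and Pparg, the nuclear receptor of fat cell formation, was at 6.60, 6.52 and 5.93. Ucp1, the uncoupling protein that defines brown fat, was at 9.41, 9.38 and 9.46, and Cidea, also known from brown fat, was at 8.61, 8.59 and 8.63. Of 12 measured endothelial genes 11 were above background, with a log2 summed level of 11.19, 11.16 and 11.13. Macrophage and fibroblast markers were read too. Of 12 measured macrophage genes 8 were above background throughout, with a log2 summed level of 11.61, 11.66 and 11.50 over all 12. For 9 of 9 fibroblast genes above background it was 14.82, 14.85 and 14.80. All of these 8 and 9 were lower in muscle 3 than the mean of the others, against 63.5% of all genes above background. Their median departures there were -0.104 and -0.0408, against -0.0349 in all these genes. Of the adipocyte and endothelial genes above background throughout, 3 of 8 and 5 of 11 were lower in muscle 3. The part of these cells in the levels of Lpl and Cd36 was not tested.

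The carnitine enzymes held the only member not above background throughout. Cpt1a, the liver form of the enzyme that makes acylcarnitine at the outer membrane, was at 6.13, 5.65 and 6.34, below background in muscle 2 and just above it in the others. The other 2 probe sets of Cpt1a did not reach background in any muscle, at 5.57, 5.88 and 5.42 and at 2.94, 2.64 and 2.54, and the first of these was highest where the top probe set was lowest. The span of Cpt1a, 0.692, is therefore a difference close to the background level. Cpt2, which returns the acyl group to CoA inside the mitochondrion, was at 9.66, 9.44 and 9.63, lowest in muscle 2. Carnitine acetyltransferase (Crat), which buffers acetyl-CoA as acetylcarnitine, was at 10.07, 9.97 and 10.02, lowest in muscle 2. Its SD of 0.0515 was below the 0.0559 expected at its level. The second probe set of Crat, at 5.96, 6.01 and 6.10, was above background in 1 muscle and lowest in muscle 1.

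Acyl-CoA dehydrogenases start each round of beta-oxidation and differ in the chain length they take. Acadvl, for very long chains, was at 11.04, 11.04 and 11.08. Acadl, for long chains, was at 11.61, 11.55 and 11.59, and Acadm, for medium chains, was at 11.62, 11.66 and 11.60. The 3 values of each of these genes lay within 0.0654. Acads, for short chains, was at 9.76, 9.83 and 9.71, a range of 0.126. A second probe set of Acadl did not reach background in any muscle, at 3.77, 3.54 and 3.47.

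Acad11, a further member of the family that acts on long acyl chains, was the member that differed most between muscles. Its levels were 9.54, 9.48 and 8.55. Muscles 1 and 2 lay close together and muscle 3 was 0.96 below their mean, a 1.99-fold span from highest to lowest. In limma's test of each gene's variance against that of genes of like level, Acad11 was the only one of 42 members tested that passed, with an SD of 0.556 against 0.0692 expected and an adjusted p of 0.0349 (Benjamini-Hochberg, 7585 genes). Over all genes tested 0.0791% were called. The call of Acad11 was already known from these data when the members were chosen, so it is not an independent outcome of testing the 42. The second probe set of Acad11 was at 8.97, 8.98 and 8.71. It was again lowest in muscle 3, by 0.27, a smaller difference than the 0.96 of the first.

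The call for Acad11 was lost when its probe sets were averaged, with an adjusted p of 0.609 by limma, and without each muscle in turn, at 0.155 without muscle 1, 0.0672 without muscle 2 and 0.995 without muscle 3. With 2 arrays left in each of these fits, its range was 0.93 without muscle 1, 0.99 without muscle 2 and 0.0602 without muscle 3. At an unadjusted p under 0.05 limma listed 3 members, Acad11, Lpl and Mdh1, where 5.06% of all genes were listed. Adjusted p-values were 0.743 for Lpl and 0.936 for Mdh1. No member reached a 2-fold range, as 0.33% of all genes did, Acad11 lying just under it, and 2 members, Acad11 and Cpt1a, reached 1.5-fold, as 2.57% did.

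**Figure D2:**
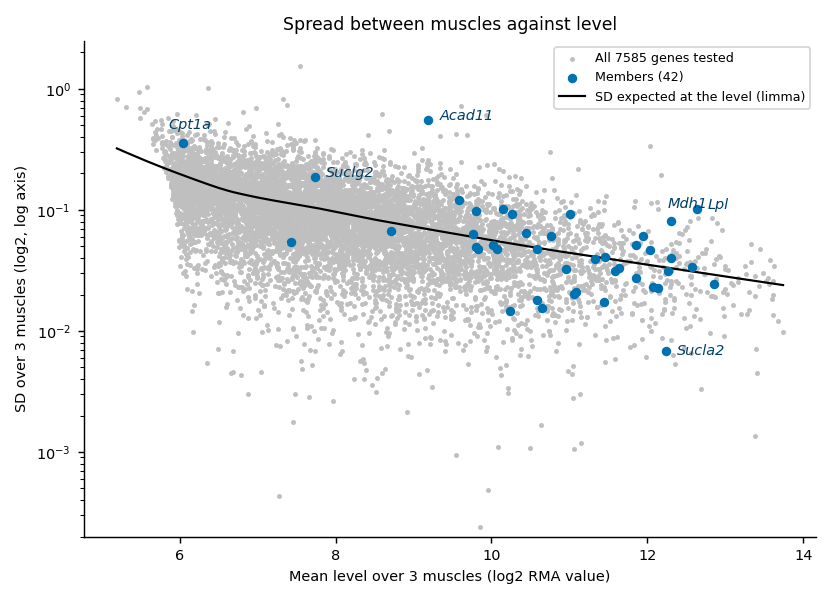
SD over the 3 muscles (vertical log axis, log2 units) against mean level (horizontal axis, log2 RMA value) for the 7585 genes tested (grey) and the 42 members (blue), with the SD that limma expects at each level as a line. Members lie on both sides of the line; Acad11, with an SD of 0.556, is the member farthest above it, and Sucla2, with 0.00682, the farthest below.

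The other enzymes of the beta-oxidation spiral were above background in all 7 cases. Echs1, the short-chain enoyl-CoA hydratase, was at 9.84, 9.78 and 9.87. Hadh, the short-chain hydroxyacyl-CoA dehydrogenase, was at 12.54, 12.57 and 12.61. Their ranges were 0.0949 and 0.0672, with muscle 3 highest in both. The second probe set of Hadh, at 11.48, 11.41 and 11.42, was highest in muscle 1 instead, so that the departure of Hadh in muscle 3 turned from 0.053 to -0.028 when probe sets open to further transcripts were left out. Hadha and Hadhb, the alpha and beta subunits of the trifunctional protein for long chains, were at 10.25, 10.24 and 10.22 and at 11.50, 11.42 and 11.45. The thiolase Acaa2 was at 10.94, 10.99 and 10.93. None of these 5 genes had a range of 0.1 or more. Eci1 and Decr1, which are needed for unsaturated fatty acids, were at 10.07, 10.27 and 10.11 and at 10.60, 10.58 and 10.56. Eci1 had the widest range of the 7, 0.195, and was highest in muscle 2.

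Electrons from the acyl-CoA dehydrogenases pass to the electron transfer flavoprotein. Its alpha subunit Etfa was at 10.94, 11.12 and 10.98 and its beta subunit Etfb at 10.66, 10.63 and 10.64. Muscle 2 was highest for Etfa and lowest for Etfb, so the subunits did not share an order. Etfdh, the membrane enzyme that hands the electrons to ubiquinone, was at 10.13, 10.05 and 10.05. Ucp3, the uncoupling protein of skeletal muscle, whose level is known to follow fatty acid supply, was at 8.67, 8.67 and 8.79, with muscle 3 highest by 0.12. Its second probe set was lower, at 6.35, 5.96 and 6.17, and below background in muscle 2.

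**Figure D3:**
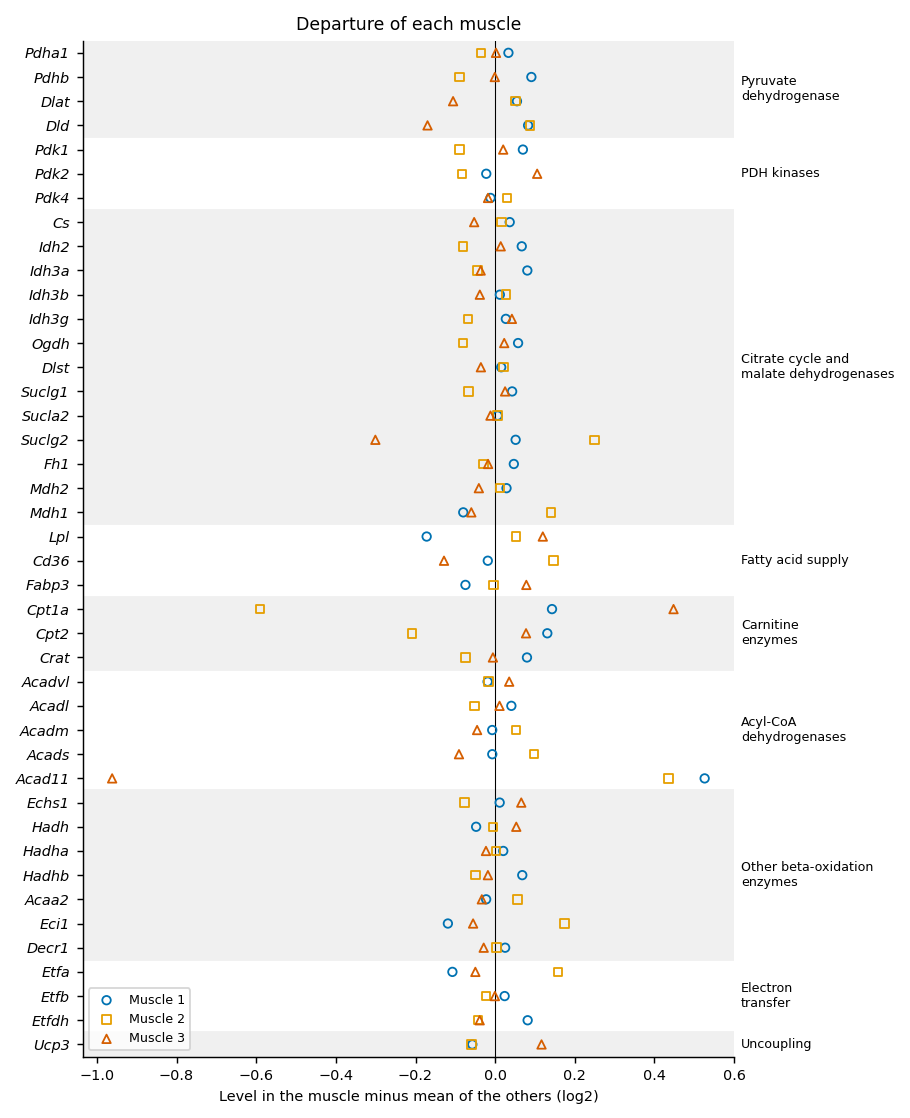
Departure of each measured member from the mean of the remaining muscles (horizontal axis, log2), for muscle 1 (circles), muscle 2 (squares) and muscle 3 (triangles), with genes grouped by role. Most symbols lie close to 0; Acad11 at -0.96 in muscle 3, Cpt1a at -0.59 in muscle 2 and Suclg2 at -0.30 in muscle 3 lie farthest below it.

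By their highest probe sets, the members as a set were close to the values of all genes in each muscle. Their median departure from the mean of the remaining muscles was 0.0251 for muscle 1, -0.00365 for muscle 2 and -0.0178 for muscle 3. Over all genes above background it was 0.0264, 0.0104 and -0.0349. In muscle 3 26 of the 41 members (63.4%) were below the mean of the others, against 63.5% of all genes. By quantile normalization of the 3 columns the sign for muscle 3 turned, to 0.00645, so no direction is given for the set. Within the cycle 8 of 13 genes were highest in muscle 1, where 40.9% of all genes above background were. In 11 of the 13 the range was under 0.1, with a median of 0.0734 against 0.146 in all genes above background. The 13 are brighter, with a median level of 12.03 against 8.13, and SD falls with level.

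Probe sets of 1 gene gave a second reading for 23 members. Of 32 such further probe sets 24 were above background in all 3 muscles, 6 in none and 2 in some. In the 24, the widest range was 0.325, for the third probe set of Dlat, and none reached 1.5-fold. In muscle 3 their departure had the sign of the top probe set in 16 of 24 cases. Of the 24, 21 were lower in muscle 3 than the mean of the others, with a median departure of -0.0526. By highest probe set, 63.5% of all genes above background were lower there. For Idh3b the second probe set, at 8.57, 8.70 and 8.38, was low in muscle 3 by 0.25, while the top one was low by 0.04. The top probe sets of Dlat, Hadh, Mdh1, Idh3b and Acaa2 are of a kind whose probes can match further transcripts, and the second one of Acad11 is too.

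**Figure D4:**
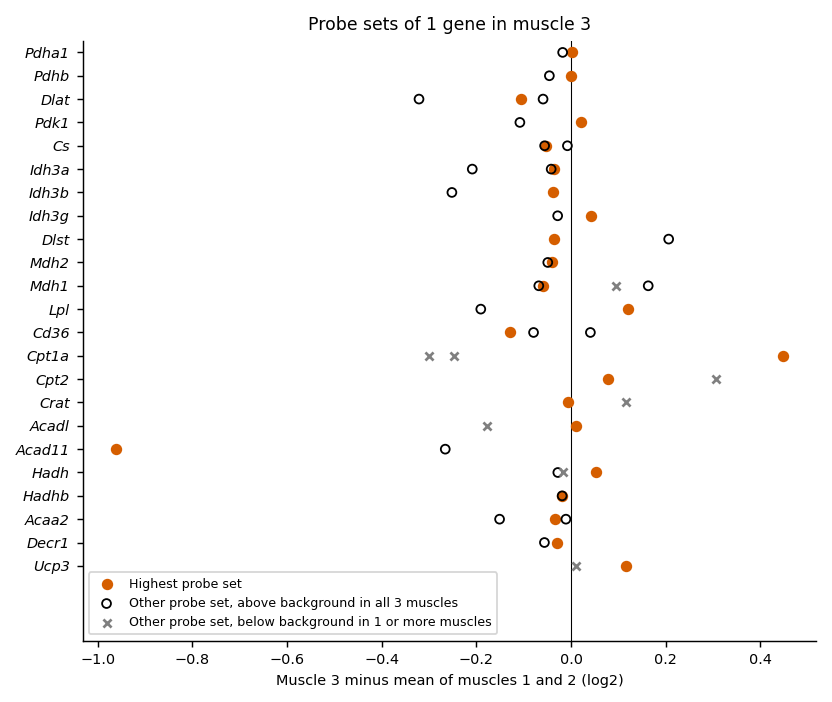
Level in muscle 3 minus the mean of muscles 1 and 2 (horizontal axis, log2) for every probe set of the 23 members with more than 1, with the highest probe set of each gene filled, others above background in all 3 muscles open, and others below it in at least 1 muscle as crosses. For Acad11 the highest probe set lies at -0.96 and the other at -0.27, both below 0.

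Other genes of the same pathways were read the same way, from a list of 65 drawn up by role with earlier results of these data known. Of 53 with a value 46 (86.8%) exceeded background throughout, against 56.8% of all genes. The 7 others exceeded it nowhere: Decr2, Ppard, Acaca, Bdh1, Acot1, Acad10 and Esrrg. The succinate dehydrogenase subunits Sdha, Sdhb, Sdhc and Sdhd, which complete the cycle, had ranges from 0.048 for Sdhb to 0.099 for Sdhd. Acacb, which makes the malonyl-CoA that restrains carnitine palmitoyltransferase 1, was at 9.55, 9.54 and 9.54. Its SD of 0.00094 was the lowest of the 46. Acacb and the succinate dehydrogenase subunits were named after their values were seen. By limma 0 of the 46 tested passed, where 0.0791% of all genes did. At an unadjusted p under 0.05 limma listed 3, where 5.06% of all genes were listed.

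The 5 with the widest ranges among those above background throughout included a regulator. Esrra, a nuclear receptor known to drive genes of oxidative metabolism, was at 8.55, 8.97 and 8.36, highest in muscle 2. Acad8, of branched-chain amino acid breakdown, was at 8.30, 8.41 and 7.84. Slc25a20, which carries acylcarnitine across the inner membrane, was at 10.38, 10.57 and 10.20. Both were highest in muscle 2 and lowest in muscle 3, as Esrra was. Of all genes above background 35.1% were highest in muscle 2 and 47.3% lowest in muscle 3. Whether these 3 genes are linked was not tested. The fatty acid transporter Slc27a1 was at 6.77, 6.35 and 6.82, and Lipt1, which attaches lipoic acid to proteins, was at 6.87, 6.43 and 6.42.

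Promoter sequences were available for 38 of the 44 members, from RefSeq in GRCm38.p6, with 46 start sites between them. There was none for Idh3a, Cpt1b, Crat, Acaa2, Lpl and Decr1. Each promoter ran from 250 bases before to 50 bases after the start, and was searched on both strands. Only exact matches to the letters given were counted, with N for any base, so sites that differ from them were not looked for. The TATA box letters TATAAA were in 0 of the 46, against 13.6% of all 32851 promoters and 7.37% of the 7478 promoters of genes above background. The letters CCAAT were in 24 of 46 (52.2%), in 19 genes, against 37.4% and 37.2%. The estrogen-related receptor element TNAAGGTCA and the DR1 element of the PPAR receptors were in 0 of 46, and are rare in this window in general, at 1.28% and 0.0396% of all promoters and 0.682% and 0.0134% of those of genes above background. Both contain AGGTCA, so their matches can overlap. These are descriptions of 1 window of letters, with start sites of the same gene counted separately, and no test was made.

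The promoters of 3 members are shown, since they hold the matches just counted in the gene that starts the cycle, the 1 promoter with a site of the nuclear respiratory factor NRF1, and Acad11, the member with the widest range. Each is the 250 bases before the start, 5′ to 3′ on the strand of the gene, with CCAAT, its reverse complement ATTGG, and the NRF1 site in capitals.
Cs, chr10:128337477-128337726, plus strand: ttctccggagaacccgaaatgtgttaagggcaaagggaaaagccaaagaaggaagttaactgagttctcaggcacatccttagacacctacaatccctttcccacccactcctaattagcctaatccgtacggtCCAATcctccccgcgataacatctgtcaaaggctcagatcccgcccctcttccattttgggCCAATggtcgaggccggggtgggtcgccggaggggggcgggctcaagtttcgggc
Etfdh, chr3:79628768-79629017, minus strand: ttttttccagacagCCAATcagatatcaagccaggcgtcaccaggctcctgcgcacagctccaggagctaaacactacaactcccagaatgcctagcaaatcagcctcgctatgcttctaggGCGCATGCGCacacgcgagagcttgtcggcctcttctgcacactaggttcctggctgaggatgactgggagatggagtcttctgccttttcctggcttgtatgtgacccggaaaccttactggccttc
Acad11, chr9:104063474-104063723, plus strand: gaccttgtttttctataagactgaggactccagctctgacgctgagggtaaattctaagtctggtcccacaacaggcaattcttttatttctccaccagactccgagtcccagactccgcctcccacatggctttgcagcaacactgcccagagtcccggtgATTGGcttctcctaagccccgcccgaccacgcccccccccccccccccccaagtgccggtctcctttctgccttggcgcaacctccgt
Cs holds 2 matches of CCAAT, first bases at -116 and -55 from the start. Etfdh holds CCAAT at -236 and the NRF1 site, the longer run of capitals, at -128, which 0.971% of all promoters hold and 2.11% of those of genes above background, against 1 of 46 member promoters (2.17%). Acad11 holds the reverse complement at -88. The 3 sequences are 55.2%, 54.4% and 58.4% G and C. Over the 46 member promoters, in the full window, the median was 60.5%, against 52.7% for all promoters and 61% for those of genes above background, a measure chosen after the data were seen.

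**Figure D5:**
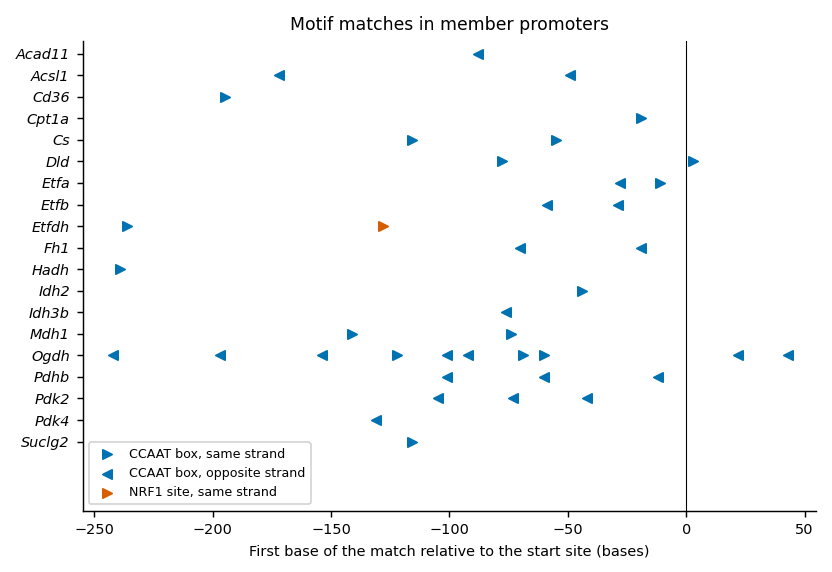
First base of each match to the CCAAT box (blue) and the NRF1 site (orange) relative to the start site (horizontal axis, bases), for the 19 members with a match, on the strand of the gene (right-pointing) or the opposite strand (left-pointing). Matches in several start sites of 1 gene share a row, as for Ogdh; the NRF1 match is that of Etfdh at -128.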

How the data were processed

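The values the authors deposited are log2 levels of probe sets, made with RMA per the submitters' processing notes. The RMA version and the set of arrays it was run on are not stated in the labels or file. RMA includes quantile normalization, which hides a change shared by most genes. Per the labels' protocols, 500 ng of Trizol-extracted RNA went into amplification. Of 22690 probe sets, platform annotation gave 1 gene for 20393, several for 691 and none for 1606. A RefSeq table matched 20364 by Entrez number, and no symbol changed. Variance was tested with limma 3.58.1 in R 4.3.3 over genes above background in at least 1 muscle, by a one-sided F test against the prior fitted robustly with a trend on level, using the prior degrees of freedom of the bulk of genes, with Benjamini-Hochberg adjustment at 0.05. The test was checked on data simulated from the variance model it had itself fitted. Such data cannot show how the test behaves where the arrays depart from that model. With 3 arrays, their number limits precision. Saturation was not tested. Python 3.11.15, numpy 2.4.6, pandas 2.3.3 and matplotlib 3.10.9 did the rest. Alternatives were other normalizations, averaged or stricter probe sets, other background levels, other limma settings and leaving out each muscle. All measured members were to be given by muscle, with the 5 widest of the other pathway genes. Members and lists were chosen with earlier results of these data known, the call of Acad11 among them.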

Additional observations from a re-analysis of the deposited data

How the results depend on the processing

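The count of members above background was 41 or, without muscle 2, 42 in every alternative run, and their median SD lay between 0.0285, without muscle 2, and 0.0478, with averaged probe sets. The variance test by limma called 1 member, Acad11. The count was 0 with averaged probe sets, a 99th percentile background (adjusted p 0.0695), no background filter (0.052), no trend on level (0.929), a prior not fitted robustly (0.121), and ran from 0 to 0 without each muscle. In 3 of 11 alternatives the call held. Among 449 values of other members under the alternatives 0 passed, with a lowest adjusted p of 0.492. The lower limit of 1.5-fold took 2 members where 2-fold took 0. Without a background filter limma called 4 genes of 12394, and with averaged probe sets 0, with 303 at an unadjusted p under 0.05. The median departure in muscle 2 changed sign with averaged probe sets, to 0.0056, and that in muscle 3 with quantile normalization. No paired analysis was possible because there is 1 group.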
